A study of Rattus norvegicus with 23 samples.

Results

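Potassium channel subunits were followed through rat oligodendroglial cells as the genes whose symbol in the authors' deposited tables begins with Kcn. The rule used no measured value and found 53 genes among 14690 named identifiers. Of the 53, 47 were listed in all 23 count files. The other 6 (Kcna1, Kcne4, Kcnj10, Kcnj13, Kcnj2 and Kcns1) were listed only in the files of differentiating CG4 cells and were not analysed here in the remaining groups. By role, the members were 24 voltage-gated pore subunits, 8 inward rectifiers, 8 tandem-pore-domain channels, 5 pore subunits gated by calcium or sodium, 7 auxiliary subunits and Kcnrg, a regulator of voltage-gated channels.

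The 23 RNA-seq libraries came from 6 groups of rat cells. CG4 is an immortalized line derived from brain oligodendroglia. After transduction with pCAG-IRES-EGFP (control), pCAG-myc-Zfp488-IRES-EGFP (Zfp488) or pCAGT7-Nkx2.2-IRES-EGFP (Nkx2.2), CG4 cells were differentiated for 3 days in SATO medium with thyroid hormones and CNTF, giving 4 libraries per group. Another 3 libraries came from wild-type CG4 cells without a vector, kept proliferating with bFGF and PDGF-AA. Primary oligodendroglia, collected by shake-off from mixed glia, were kept in the same media and gave 4 libraries per stage (proliferating and differentiating), with no vector named in the labels. The proliferating CG4 libraries were read as 2x100 and all others as 2x150 pairs, so in CG4 cells the stage of the cells, the vector and the read length cannot be told apart. In all, 6 comparisons were made, and those of Zfp488 and of Nkx2.2 with control, and of control with proliferating CG4 cells, share the same 4 control libraries.

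Potassium channels set the resting potential of a cell and carry outward current after depolarization. Progenitors of the oligodendrocyte lineage carry large delayed-rectifier and A-type currents through voltage-gated channels, whose block is known to slow their division. As the cells mature these currents shrink and inward rectifiers, which clear potassium and hold the membrane potential negative, come to dominate. Tandem-pore-domain channels give background leak current, and channels gated by calcium or sodium link the membrane potential to ion entry. Zfp488 is a zinc-finger protein and Nkx2.2 a homeodomain protein, both transcription factors of this lineage.

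Upstream sequences are shown for 4 members that bear on the comparison with Nkx2.2. Kcna6 and Kcna4, 2 Shaker-type channels, moved in opposite directions with Nkx2.2, and Kcnj13, an inward rectifier, and Kcnk4, a mechanosensitive leak channel, rose with it. Each line gives the 250 bases before the annotated start, 5′ to 3′ on the gene's strand, from RefSeq on the build GRCr8. Capitals mark TNAAGTG, the core sequence known for homeodomain proteins of the Nkx2.2 class, searched on both strands.

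Kcna6: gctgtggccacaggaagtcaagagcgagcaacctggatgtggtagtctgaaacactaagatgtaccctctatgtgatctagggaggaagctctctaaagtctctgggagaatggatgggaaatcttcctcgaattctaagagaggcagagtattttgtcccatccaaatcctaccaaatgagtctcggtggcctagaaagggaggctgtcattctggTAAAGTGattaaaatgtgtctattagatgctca
Kcna4: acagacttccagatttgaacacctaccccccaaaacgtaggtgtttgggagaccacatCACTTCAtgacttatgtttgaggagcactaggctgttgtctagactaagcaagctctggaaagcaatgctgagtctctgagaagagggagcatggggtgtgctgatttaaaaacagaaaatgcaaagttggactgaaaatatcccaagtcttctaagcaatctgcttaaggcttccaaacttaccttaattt
Kcnj13: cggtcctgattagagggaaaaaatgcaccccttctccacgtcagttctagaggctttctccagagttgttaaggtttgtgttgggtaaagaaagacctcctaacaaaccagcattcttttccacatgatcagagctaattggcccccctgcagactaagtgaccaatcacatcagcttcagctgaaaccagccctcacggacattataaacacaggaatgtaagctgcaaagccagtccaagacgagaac
Kcnk4: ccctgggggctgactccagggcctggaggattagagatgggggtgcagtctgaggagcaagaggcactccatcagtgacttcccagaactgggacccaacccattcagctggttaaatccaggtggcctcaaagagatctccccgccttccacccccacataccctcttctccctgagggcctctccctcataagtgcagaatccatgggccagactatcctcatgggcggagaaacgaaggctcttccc

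The sequence of Kcna6 lies at chr4:161262353-161262602 on the minus strand, and its match reads along the gene and begins 33 bases before the start. That of Kcna4 lies at chr3:114215086-114215335 on the plus strand, with a match on the opposite strand whose leftmost base is 192 bases before the start. Kcnj13 (chr9:95518987-95519236, minus strand) and Kcnk4 (chr1:213555862-213556111, minus strand) hold no match in these windows. A promoter of 300 bases, 250 before to 50 after the start, was matched by symbol for 33 of the 53 members. TNAAGTG was present in 3 of these 33 (9.1%: Kcna4, Kcna6 and Kcnab3), against 11.2% of the 24206 rat promoters of the same length. Among the 8 matched members that rose with Nkx2.2 it was present in 1, and among the 24 others that were tested in 2. CANNTG, the core bound by basic helix-loop-helix proteins, which lies within TNAAGTG where N is C, was present in 66.7% of the members' promoters and 71.3% of all. Some members lie side by side on this build with no other named protein-coding gene between them. These are Kcna5, Kcna1 and Kcna6 in a row, Kcna3 with Kcna2, Kcnj9 with Kcnj10, and Kcnj16 with Kcnj2.

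Total counts per library were 20063345 to 49206479. Levels are given as CPM, counts scaled to equal library totals after TMM, in the order of the replicate numbers, and compare 1 gene between libraries, not genes with each other, since transcript lengths were not used. Changes are log2 fold changes from edgeR's quasi-likelihood test, called at a Benjamini-Hochberg adjusted p under 0.05 over all genes tested. The SE printed after ± was derived as the absolute log2 fold change divided by the square root of the test's F statistic. It is approximate, above all for genes with few counts. Zfp488 stood at 130.5 CPM or more in each Zfp488 library against 33.7 to 59.0 in control, and Nkx2-2 at 1282 to 1990 CPM in the Nkx2.2 libraries against 211.3 to 299.4. All 9 oligodendroglial markers were detected in every group. The differentiating primary libraries form close pairs (replicates 1 and 2, and 3 and 4), about which the labels say nothing, and their pairwise chi-square over degrees of freedom was 8.45 and 1.77 within and 29.3 to 37.1 across the pairs. The 3 proliferating CG4 libraries differed from each other by 153 to 265 on the same measure. Of the markers of other cells that were named in the tables, none was at 0 in all libraries of a group except the astrocyte gene Aldh1l1 in proliferating CG4 cells. In these bulk libraries, fewer cells of a type and less RNA per cell cannot be told apart.

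**Figure D1:**
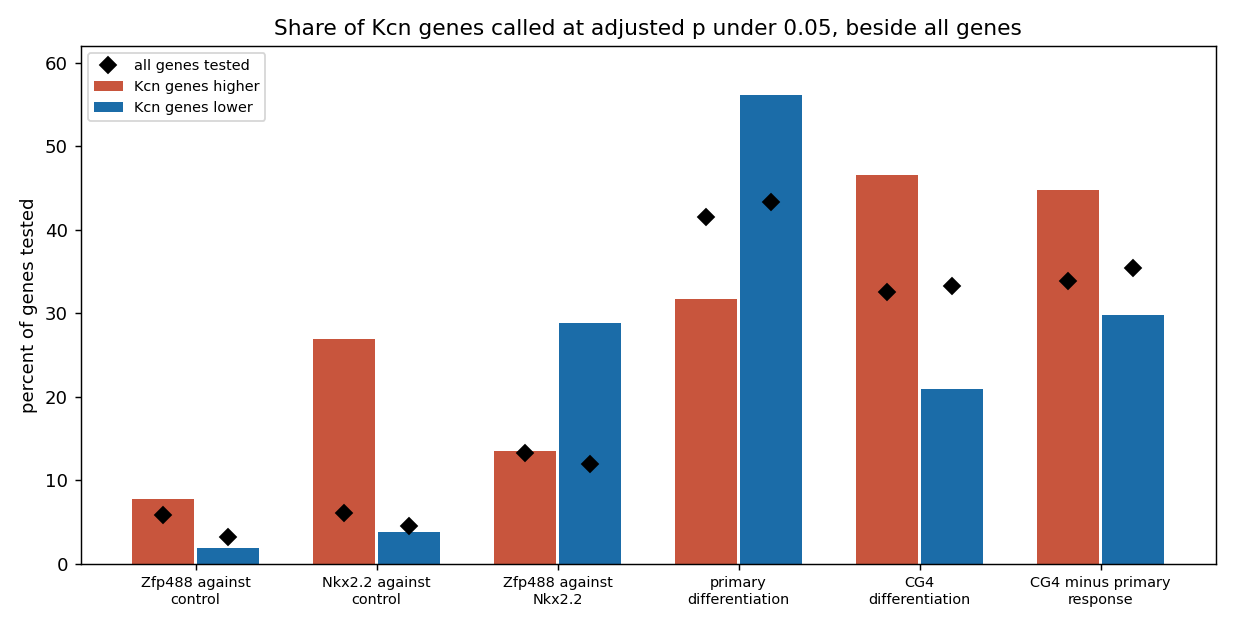
Percent of the tested Kcn genes called higher (red bars) and lower (blue bars) in each of the 6 comparisons, with the percent of all tested genes called in the same direction (black diamonds). With Nkx2.2, 26.9% of the Kcn genes were higher against 6.1% of all genes, and in primary differentiation 56.1% were lower against 43.3%. All shares are from the fits without the replicate number as a block.

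With Zfp488, 5 of the 52 tested members changed: the modifier Kcng1, the M-current subunit Kcnq3, the calcium-gated channel Kcnn2 and the Shaw-type channel Kcnc4 rose, and the G-protein-gated inward rectifier Kcnj9 fell. That is 4 higher and 1 lower, or 7.7% and 1.9% of the members tested, against 5.89% and 3.15% of all 14811 genes. This fit did not use the replicate number. With the replicate number as a block (below), 6 members were higher and 9 lower, where 14% and 10.2% of all genes were. The members' median log2 fold change was -0.15, and that of all genes -0.02. An unadjusted p under 0.05 was reached by 12 members. The share of all genes at that threshold is not given here, so this count is not read as particular to the members.

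Kcng1 encodes a silent subunit that forms channels only together with pore subunits of another family. It stood at 8.38, 26.2, 46.2 and 40.0 CPM with Zfp488 and at 2.97, 6.48, 7.95 and 7.93 CPM in control. The groups do not overlap, and replicate 1 is the lowest in both. The log2 fold change was 2.26 ± 0.49 (adjusted p = 0.0164), and without Zfp488 replicate 4 the adjusted p was 0.0546.

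Kcnq3 belongs to the channels of the M-current, which opens near the resting potential and steadies it. It was measured at 1.08, 0.923, 0.991 and 2.14 CPM with Zfp488 against 0.335, 0.297, 0.345 and 0.158 CPM in control, with no overlap and replicate 4 above the other Zfp488 libraries. The log2 fold change was 2.18 ± 0.38 (adjusted p = 0.00656). Its relative Kcnq1 had values of 0.939, 2.64, 7.80 and 8.20 CPM against 0.313, 0.648, 1.97 and 0.902 CPM. With the spread between the Zfp488 libraries, its log2 fold change of 2.36 ± 0.74 missed the threshold (adjusted p = 0.0657). Fitted with the replicate number as a block, it was 2.33 with an adjusted p of 0.000425.

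Kcnj9 fell by a small and even amount. It stood at 7.33, 7.33, 7.03 and 7.34 CPM with Zfp488 and at 10.6, 10.9, 11.1 and 12.5 CPM in control, a log2 fold change of -0.63 ± 0.10 (adjusted p = 0.00364). Kcnn2, at 0.436 to 0.671 CPM against 0.123 to 0.201 CPM, rose by 1.75 ± 0.47 on the log2 scale (adjusted p = 0.0389). Kcnc4, at 0.607 to 1.16 CPM against 0.418 to 0.654 CPM, rose by 0.87 ± 0.24 (adjusted p = 0.0389), and its groups overlap. Both calls depended on single libraries: Kcnn2 lost its call without any 1 of the 8 compared (adjusted p up to 0.102), and Kcnc4 lost it without 8 of the 12 libraries of the fit (control 1, 2 and 3, Zfp488 1, 2 and 4, Nkx2.2 2 and 4; adjusted p up to 0.103).

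Since same-numbered libraries of the 3 differentiating CG4 groups deviated together, the replicate number was also fitted as a block. With it, 15 members were called with Zfp488, 6 higher and 9 lower, among all genes 14% higher and 10.2% lower. All 5 calls remained, and the 10 gained were Kcnq1 and Kcne4 among those higher and Kcna3, Kcnab1, Kcnip3, Kcnj14, Kcnj4, Kcnk1, Kcnk10 and Kcnn1 among those lower. Kcnk10, a leak channel opened by stretch and lipids, shows the pattern: 6.86, 7.62, 4.12 and 2.69 CPM with Zfp488 lay below 12.9, 11.4, 7.51 and 6.06 CPM in control within each number, while the groups overlap. Its log2 fold change was -0.85 with the block (adjusted p = 0.00211) and -0.82 ± 0.35 without it (adjusted p = 0.166). The summed oligodendroglial markers were 16110 to 27830 CPM with Zfp488 and 9859 to 15810 CPM in control. The 4 Schwann cell markers named in the tables (of 5) summed to 122.7 to 225.1 CPM against 48.9 to 100.6 CPM, also apart, and the 3 mural cell and fibroblast markers (of 9) to 12.3 to 36.2 CPM against 4.01 to 13.7 CPM, with overlap. Their part in these results was not tested.

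With Nkx2.2, 14 of the 52 tested members rose and 2 fell. Among those that rose were the Shaker-type Kcna1 and Kcna6, the Shaw-type Kcnc1 and Kcnc4, the EAG-family channels Kcnh4 and Kcnh6, the leak channels Kcnk2, Kcnk3 and Kcnk4, the calcium-gated Kcnma1 and the inward rectifier Kcnj13. The Shaker-type Kcna4 and the beta subunit Kcnab2 fell. The share of members higher was 26.9% against 6.1% of all genes, and the share lower 3.8% against 4.48%. The members' median log2 fold change was 0.19, and that of all genes -0.01. By role, 9 of the 24 voltage-gated pore subunits rose, 1 fell and 1 was not tested. Of the 8 tandem-pore-domain channels 3 rose, of the 8 inward rectifiers 1 and of the 5 channels gated by calcium or sodium 1, and of the 7 auxiliary subunits none rose and 1 fell.

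The values of Kcna6 were 70.5, 77.9, 54.0 and 94.2 CPM with Nkx2.2 and 10.6, 15.6, 22.5 and 11.2 CPM in control, and with Zfp488 they were 9.86, 12.5, 20.01 and 12.97 CPM. Only the Nkx2.2 libraries stood apart, and the log2 fold change against control was 2.32 ± 0.27 (adjusted p = 0.000248). Its neighbour on the chromosome Kcna1, which forms fast low-threshold channels, was at 19.9, 18.1, 9.81 and 19.1 CPM against 8.01, 10.2, 7.998 and 4.71 CPM. These groups overlap in 1 library, Nkx2.2 replicate 3, and the log2 fold change was 1.13 ± 0.25 (adjusted p = 0.0117). The next gene in the row, Kcna5, a delayed rectifier known from progenitors, was at 5.66 to 9.98 CPM against 3.57 to 6.75 CPM (log2 fold change 0.60 ± 0.26, adjusted p = 0.161, and 0.62 with an adjusted p of 0.0216 with the block).

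Kcna4, an A-type channel that inactivates fast, went the other way. It stood at 1.03, 0.776, 2.00 and 0.916 CPM with Nkx2.2 and at 2.37, 3.35, 7.88 and 3.45 CPM in control, with no overlap. The log2 fold change was -1.85 ± 0.45 (adjusted p = 0.0199), and without Nkx2.2 replicate 1, 2 or 4 the adjusted p was up to 0.0688. Kcnab2, a beta subunit of Shaker-type channels, was at 5.56 to 6.61 CPM against 7.64 to 11.01 CPM, a log2 fold change of -0.66 ± 0.14 (adjusted p = 0.0116).

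The leak channels that rose did so from low levels. Kcnk2, which opens with membrane stretch and lipids, had 3.12, 1.18, 0.509 and 1.08 CPM with Nkx2.2 and 0.067, 0, 0.172 and 0.0902 CPM in control. The groups do not overlap, the control value rests on 14 counts in all, and the log2 fold change of 4.11 ± 0.70 (adjusted p = 0.00261) was 3.44 without Nkx2.2 replicate 1. Kcnk4 was at 5.14, 4.56, 2.17 and 4.32 CPM against 1.21, 0.648, 1.03 and 1.38 CPM, a log2 fold change of 1.93 ± 0.28 (adjusted p = 0.000935). Kcnk10, the other member of this mechanosensitive branch, was at 4.84 to 10.7 CPM against 6.06 to 12.9 CPM (adjusted p = 0.538). The acid-sensitive Kcnk3 was at 1.16 to 1.43 CPM against 0.271 to 0.760 CPM (log2 fold change 1.43 ± 0.33, adjusted p = 0.0162, and 0.0521 without Nkx2.2 replicate 2).

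Among the inward rectifiers only Kcnj13 was called, at 1.27, 0.820, 0.345 and 1.60 CPM with Nkx2.2 and 0.0209 to 0.0678 CPM in control, the latter from 7 counts in all. Its log2 fold change was 4.60 ± 0.61 (adjusted p = 0.000555). Kcnj10, the main potassium-buffering channel of glia, was at 127, 119, 80.0 and 114 CPM with Nkx2.2, 103, 74.4, 78.0 and 86.8 CPM with Zfp488 and 124, 101, 106 and 85.5 CPM in control. The 3 groups overlap, and neither factor's difference from control passed the test (adjusted p = 0.762 for Nkx2.2 and 0.295 for Zfp488). Its partner subunit Kcnj16 (1.02 to 3.00 CPM against 0.960 to 2.64 CPM) and Kcnj2 (0.586 to 1.01 CPM against 0.407 to 0.926 CPM) also overlapped between Nkx2.2 and control.

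Kcnc4 and Kcnc1 are Shaw-type channels, which repolarize fast after strong depolarization. Kcnc4 was at 1.42 to 1.83 CPM with Nkx2.2 and 0.418 to 0.654 CPM in control (log2 fold change 1.79 ± 0.23, adjusted p = 0.000405). Kcnc1 was at 0.611 to 0.751 CPM against 0.268 to 0.324 CPM (1.19 ± 0.27, adjusted p = 0.0149, and 0.0534 without Nkx2.2 replicate 2).

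Kcnma1, the large-conductance channel gated by calcium and voltage, was at 6.28, 5.76, 4.00 and 4.58 CPM against 2.17, 2.46, 2.29 and 1.47 CPM, with a log2 fold change of 1.31 ± 0.27 (adjusted p = 0.00763). Its beta subunit Kcnmb4 did not pass the test (3.36 to 5.49 CPM against 2.89 to 3.84 CPM, adjusted p = 0.520). Kcnh4, an EAG-family channel, was at 2.204 to 3.91 CPM against 1.16 to 2.03 CPM (0.99 ± 0.27, adjusted p = 0.0337). The call was lost when any of control 2 to 4 and Nkx2.2 1 and 2 was left out (highest adjusted p 0.105). Kcnh6, of the same family, stood at 0.475 to 1.11 CPM against 0.172 to 0.338 CPM (1.61 ± 0.34, adjusted p = 0.0103).

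With the replicate block, 28 members were called with Nkx2.2, 18 higher and 10 lower, among all genes 12.6% higher and 13.5% lower. All 16 calls remained. Of the 12 gained, Kcna5, Kcnd3, Kcnip3 and Kcnt1 were higher and Kcna3, Kcnab1, Kcne2, Kcnj12, Kcnj4, Kcnk1, Kcnk12 and Kcnq5 lower. Kcnk1, a weak background channel, was at 0.983, 0.701, 2.37 and 1.21 CPM with Nkx2.2 and 2.12, 2.83, 6.25 and 2.68 CPM in control, lower within each number. Its log2 fold change was -1.40 ± 0.50 without the block (adjusted p = 0.0974) and -1.40 with it (adjusted p = 0.000259). Beside these values, the same 4 Schwann cell markers, which were also higher with Zfp488, summed to 210.4 to 952.3 CPM with Nkx2.2 and 48.9 to 100.6 CPM in control. The sums of the other marker lists overlapped between Nkx2.2 and control. Their part in the results was not tested.

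**Figure D2:**
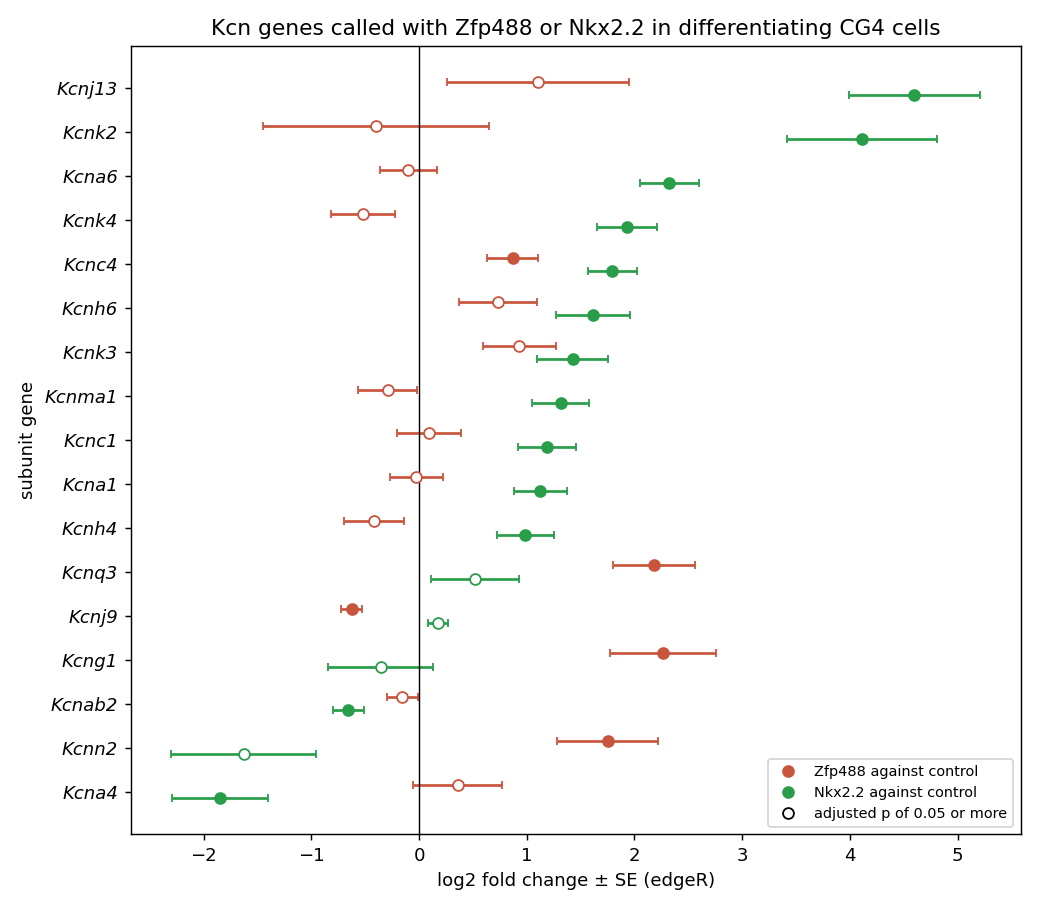
Log2 fold change (horizontal axis, ± SE, edgeR) of 17 of the 20 Kcn genes called with Zfp488 (red) or Nkx2.2 (green) against the same 4 control libraries, with open points where the adjusted p was 0.05 or more. Kcnc4 is called in both, and Kcng1, Kcnq3 and Kcnn2 lie above 1 with Zfp488 and below 1 with Nkx2.2.

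The direct comparison tested the difference between the 2 factors. Of 52 members 7 were higher with Zfp488 (13.5%, all genes 13.3%) and 15 higher with Nkx2.2, that is lower with Zfp488 (28.8%, all genes 12%). The median log2 difference, Zfp488 minus Nkx2.2, was -0.36 for the members and -0.01 for all genes. Those higher with Zfp488 were Kcna4, Kcnab2, Kcne4, Kcng1, Kcnn2, Kcnq1 and Kcnq3. Those lower with Zfp488 included Kcna1, Kcna5, Kcna6, Kcnc1, Kcnc4, Kcnh4, Kcnip3, Kcnj13, Kcnj9, Kcnk2, Kcnk4 and Kcnma1.

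Kcna6 differed by -2.42 ± 0.28 on the log2 scale (adjusted p = 0.000107) and Kcng1 by 2.62 ± 0.50 (adjusted p = 0.00291). Kcnn2, which underlies the afterhyperpolarization of neurons, was at 0.542, 0.436, 0.671 and 0.551 CPM with Zfp488 and at 0.151, 0, 0.0339 and 0 CPM with Nkx2.2, the latter from 7 counts in all. Its difference of 3.38 ± 0.59 (adjusted p = 0.00171) was 5.34 without Nkx2.2 replicate 1. Kcnj9, at 11.5 to 13.5 CPM with Nkx2.2, was lower with Zfp488 by 0.80 on the log2 scale (-0.80 ± 0.10, adjusted p = 0.000148). Kcne4, a small subunit that dampens several voltage-gated channels, was at 1.88, 2.52, 3.18 and 3.40 CPM with Zfp488 and 1.75, 0.937, 0.909 and 0.906 CPM with Nkx2.2 (1.28 ± 0.27, adjusted p = 0.00505).

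The sodium- and calcium-gated members other than Kcnn2 and Kcnma1, namely Kcnn1, Kcnn3 and Kcnt1, did not pass the test in this comparison without the block (adjusted p = 0.516, 0.927 and 0.254). The calls of Kcna5, Kcnab2, Kcnip3 and Kcnq1 were lost when single libraries were left out. For Kcna5 these were Zfp488 2, 3 and 4 and Nkx2.2 2 and 4 (highest adjusted p 0.0729), for Kcnab2 Zfp488 3 and 4 and Nkx2.2 1, 2 and 4 (0.0686) and for Kcnip3 Zfp488 2 and 4 (0.0681). For Kcnq1 they were 8 of the 12 libraries (control 2 and 4, Zfp488 2, 3 and 4, Nkx2.2 1, 2 and 4; 0.132). With the block, 34 members were called, 11 higher and 23 lower with Zfp488, among all genes 22% and 20.3%. All 22 calls remained. Of the 12 gained, Kcnab1, Kcnj12, Kcnk12 and Kcnrg were higher with Zfp488 and Kcnd3, Kcnh2, Kcnh6, Kcnj10, Kcnj14, Kcnk10, Kcnk5 and Kcnt1 lower. With the block, Kcnt1 differed by -0.66 (adjusted p = 0.0276) and Kcnj10 by -0.36 (adjusted p = 0.0274, and 0.0995 without it). Beside these values, the oligodendroglial markers summed to 16110 to 27830 CPM with Zfp488 and 6668 to 15270 CPM with Nkx2.2, and the 9 neuron markers named (of 10) to 463.4 to 665.6 CPM and 314.4 to 398.1 CPM, both apart. Their part in the results was not tested.

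Differentiation of primary cells, with no vector and no line, gave calls for most members: 13 of 41 tested rose and 23 fell (31.7% and 56.1%), among all genes 41.5% rose and 43.3% fell. The median log2 fold change was -0.62 for the members and -0.02 for all genes. The strong inward rectifier Kcnj12 rose most, followed by Kcnc4, Kcna6, Kcng1, Kcnq3 and Kcnn2. The modifier Kcnf1, the leak channels Kcnk3 and Kcnk13, the EAG-family channel Kcnh4 and the M-current subunit Kcnq5 were among those that fell most. By role, 7 voltage-gated pore subunits rose and 9 fell, 1 tandem-pore-domain channel rose and 5 fell, 1 channel gated by calcium or sodium rose and 4 fell, and 2 inward rectifiers rose and 3 fell.

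Kcnj12 encodes a strong inward rectifier, which passes current inward far more easily than outward. It stood at 379, 361, 423 and 399 CPM in differentiating and 8.71, 8.93, 8.26 and 8.67 CPM in proliferating primary cells. Replicates lie close together in both groups, and the log2 fold change was 5.54 ± 0.07 (adjusted p = 2.49e-13). The other inward rectifiers moved less: Kcnj4 rose (2.30 ± 0.52 CPM against 0.99 ± 0.17 CPM as mean ± SD, n = 4; log2 fold change 1.26 ± 0.21, adjusted p = 0.000166), and Kcnj9, Kcnj14 and Kcnj16 fell by 0.48, 0.88 and 0.82 on the log2 scale. The call of Kcnj16 (0.346 to 1.02 CPM against 0.908 to 1.53 CPM, adjusted p = 0.0250) was lost without primary proliferating 3 or 4 or differentiating 1 or 2, with an adjusted p of up to 0.0874.

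Kcna6 rose from 3.36, 2.48, 1.85 and 2.33 CPM to 39.1, 37.4, 46.6 and 46.2 CPM (log2 fold change 4.10 ± 0.15, adjusted p = 3.79e-10). The other Shaker-type genes did not follow it. Kcna2 was at 36.4, 36.8, 31.2 and 34.6 CPM in proliferating and 11.9, 14.6, 12.2 and 14.0 CPM in differentiating cells (-1.36 ± 0.08, adjusted p = 3.22e-08). Kcna3 was at 44.0 to 51.3 CPM and 11.9 to 13.5 CPM (-1.87 ± 0.07, adjusted p = 2.97e-10). Kcna4 and Kcna5 lay at 0.672 to 0.977 CPM and 0.558 to 0.967 CPM in proliferating cells, and neither change passed the test (adjusted p = 0.372 and 0.172). Kcnab1 and Kcnab3, beta subunits of this branch, fell by 1.12 and 1.25 on the log2 scale, and Kcnab2, at 12.3 to 14.9 CPM in all 8 libraries, did not pass the test (adjusted p = 0.849).

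Among the silent modifiers, Kcng1 rose and Kcnf1 fell. Kcng1 went from 0.807, 0.733, 0.703 and 0.725 CPM to 12.8, 11.4, 9.86 and 9.01 CPM (3.90 ± 0.14, adjusted p = 5.01e-10). Kcnf1 went from 16.2, 14.7, 14.6 and 16.6 CPM to 0.761, 0.924, 1.30 and 1.89 CPM (-3.68 ± 0.19, adjusted p = 7.57e-09).

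Kcnq3 and Kcnq5, both of the M-current family, also moved apart. Kcnq3 rose from 1.48, 0.907, 0.791 and 1.503 CPM to 8.72, 10.97, 10.2 and 10.3 CPM (3.10 ± 0.18, adjusted p = 1.78e-08). Kcnq5 fell from 30.6, 31.1, 30.2 and 32.6 CPM to 6.09, 6.504, 5.85 and 6.91 CPM (-2.26 ± 0.07, adjusted p = 9.48e-11).

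The leak channels mostly fell. Kcnk3 went from 12.6, 12.5, 13.7 and 12.6 CPM to 1.45, 1.19, 1.55 and 1.74 CPM (-3.08 ± 0.11, adjusted p = 3.88e-10) and Kcnk10 from 32.3 to 33.6 CPM to 6.96 to 10.6 CPM (-1.86 ± 0.09, adjusted p = 6.60e-09). Kcnk13, which is inhibited by halothane and is known as a leak channel of microglia, fell from 4.64, 3.87, 5.01 and 4.08 CPM to 1.04, 0.539, 0.435 and 0.256 CPM (-2.82 ± 0.26, adjusted p = 1.46e-06). Beside this fall and that of Kcna3, which microglia also carry, 3 of 11 microglial markers were named in the tables (P2ry12, Csf1r and Cd68), and they summed to 450.7 to 469.0 CPM in proliferating and 18.8 to 24.9 CPM in differentiating primary cells. The 3 markers of mural cells and fibroblasts went from 60.3 to 82.3 CPM to 17.9 to 26.9 CPM, and the 6 of astrocytes from 202.0 to 213.4 CPM to 1315 to 2447 CPM. The Schwann cell markers went from 11.4 to 12.3 CPM to 159.4 to 212.3 CPM, the neuron markers from 535.3 to 547.1 CPM to 746.1 to 905.4 CPM and the oligodendroglial markers from 4049 to 4363 CPM to 79590 to 89880 CPM. Their part in these results was not tested.

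Kcnk12, the closest relative of Kcnk13, split the differentiating libraries by their pairs: 0.657 and 0.154 CPM in replicates 1 and 2, and 11.6 and 10.7 CPM in replicates 3 and 4, against 0.993 to 1.38 CPM in proliferating cells. Its log2 fold change of 2.32 ± 0.94 (adjusted p = 0.0386) was 3.35 without replicates 1 and 2 and -1.36 without replicates 3 and 4, so its direction depends on the pair. It also lost its call without replicate 3 or 4 or any 1 proliferating library (adjusted p up to 0.118). Kcnn1, a calcium-gated channel of small conductance, fell by 0.40 on the log2 scale (adjusted p = 0.0419) and lost its call without any proliferating library or differentiating 1 or 2 (up to 0.114). Kcnc1, at 8.79 to 9.58 CPM and 9.78 to 10.9 CPM, rose by 0.19 ± 0.07 (adjusted p = 0.0323), a call lost without proliferating 2, 3 or 4 or differentiating 4 (up to 0.0842).

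Kcnn2 and Kcnn3, both small-conductance channels, moved apart. Kcnn2 rose from 0.336 to 0.483 CPM to 2.35 to 4.20 CPM (3.00 ± 0.25, adjusted p = 5.01e-07), and Kcnn3 fell from 12.6 to 12.99 CPM to 4.35 to 4.98 CPM (-1.40 ± 0.07, adjusted p = 7.54e-09). Kcnma1 fell from 16.4, 17.2, 17.9 and 18.5 CPM to 5.99, 7.16, 11.1 and 11.3 CPM (-0.96 ± 0.18, adjusted p = 0.000401), with the differentiating libraries again lower in replicates 1 and 2. Kcnc4 rose from 0.0672, 0.0698, 0.176 and 0 CPM to 1.63, 1.39, 1.55 and 2.46 CPM (4.62 ± 0.45, adjusted p = 2.16e-06), which was 5.26 without proliferating replicate 3. Kcnh5, the EAG-type channel, was at 1.36 to 1.66 CPM and then 3.22, 3.73, 8.31 and 7.78 CPM (1.90 ± 0.32, adjusted p = 0.000195). Kcnrg rose from 1.34 to 2.44 CPM to 9.08 to 10.8 CPM (2.40 ± 0.16, adjusted p = 9.70e-08).

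In CG4 cells, 20 of 43 tested members were higher in the differentiated control cells than in proliferating cells and 9 lower (46.5% and 20.9%), among all genes 32.5% and 33.2%. The median log2 fold change was 0.83 for the members and 0.01 for all genes. The leak channel Kcnk12, the G-protein-gated Kcnj9, the beta subunit Kcnab1, the Shaker-type Kcna5 and the modifier Kcng1 were higher by the widest margins. Kcna2, the calcium sensor Kcnip3, the leak channels Kcnk2 and Kcnk10, the inward rectifier Kcnj4 and the EAG-type Kcnh5 were lower. The astrocyte markers summed to 971.9 to 2778 CPM in control and 111.2 to 283.1 CPM in proliferating CG4 cells. Also apart were the oligodendroglial markers (9859 to 15810 CPM against 4152 to 5964 CPM), the Schwann cell markers (48.9 to 100.6 CPM against 8.92 to 16.6 CPM) and the mural cell and fibroblast markers (4.01 to 13.7 CPM against 0.337 to 0.728 CPM). Their part in these results was not tested.

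Kcnk12 stood at 14.3, 23.1, 64.2 and 27.6 CPM in control and 0.192, 0.157 and 0.316 CPM in proliferating CG4 cells. The groups are far apart, with control replicate 3 the highest, and the log2 fold change was 7.17 ± 0.69 (adjusted p = 5.01e-05). Kcnj9 was even within both groups, at 10.6, 10.9, 11.1 and 12.5 CPM against 0.192, 0.188 and 0.267 CPM (5.71 ± 0.27, adjusted p = 1.15e-06). Kcnj12 was at 149, 135, 291 and 183 CPM against 23.6, 15.9 and 41.7 CPM (2.84 ± 0.40, adjusted p = 0.000401).

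The size of several of the larger values depends on single libraries of proliferating CG4 cells, whose levels differ widely. For the 3 genes that follow, the change was larger without the library named. Kcnab1 was at 24.2, 28.7, 10.2 and 9.35 CPM against 0.120, 0.0626 and 0.995 CPM (5.51 ± 0.93, adjusted p = 0.00103), and 7.57 on the log2 scale without proliferating replicate 3. Kcna5 was at 6.75, 6.69, 3.57 and 4.21 CPM against 0.361, 0 and 0.0243 CPM (5.30 ± 0.93, adjusted p = 0.00129), and 8.34 without replicate 1. Kcng1 was at 2.97 to 7.95 CPM against 0.0240, 0.219 and 0.510 CPM (4.66 ± 0.78, adjusted p = 0.00102), and 5.78 without replicate 3. All 3 calls held without any 1 library. Kcnh6 was also called higher, but its 3 proliferating libraries held 1 count in all, so no fold is given.

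Kcnt1, a sodium-gated channel, was at 12.98, 8.74, 3.47 and 3.61 CPM against 0.168, 0.845 and 0.825 CPM (3.59 ± 0.73, adjusted p = 0.00283). Kcnn1 was at 16.7, 18.2, 22.6 and 17.4 CPM against 2.98, 3.35 and 2.98 CPM, with little spread on either side (2.62 ± 0.19, adjusted p = 1.20e-05).

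Among the members that were lower, Kcnip3, which binds calcium and A-type channels, stood at 13.3, 19.7, 29.5 and 15.3 CPM in control and 70.1, 252, and 160 CPM in proliferating cells (-3.02 ± 0.44, adjusted p = 0.000469). Kcna2 was at 0.760, 1.46, 1.35 and 0.564 CPM against 4.43, 28.8 and 15.3 CPM (-3.94 ± 0.63, adjusted p = 0.000798), and -3.22 without proliferating replicate 2. That library was the highest for Kcna2, Kcnip3, Kcnj4, Kcnk10 and Kcnmb4. Without it Kcnj4 went from -2.76 to -1.70 and Kcnmb4 from -2.33 to -1.56, both still called. Kcnk10 was at 6.06 to 12.9 CPM against 33.5, 104 and 68.1 CPM (-2.83 ± 0.41, adjusted p = 0.000470). The calls of Kcnab2, Kcnc4, Kcnd3 and Kcne2 were lost without 1 library: Kcnab2 without control 2 or 3 (adjusted p up to 0.0549), Kcne2 without control 4 or proliferating 3 (0.0645), Kcnd3 without control 2, 3 or 4 or proliferating 2 or 3 (0.117), and Kcnc4 without any control library or proliferating 2 or 3 (0.118).

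**Figure D3:**
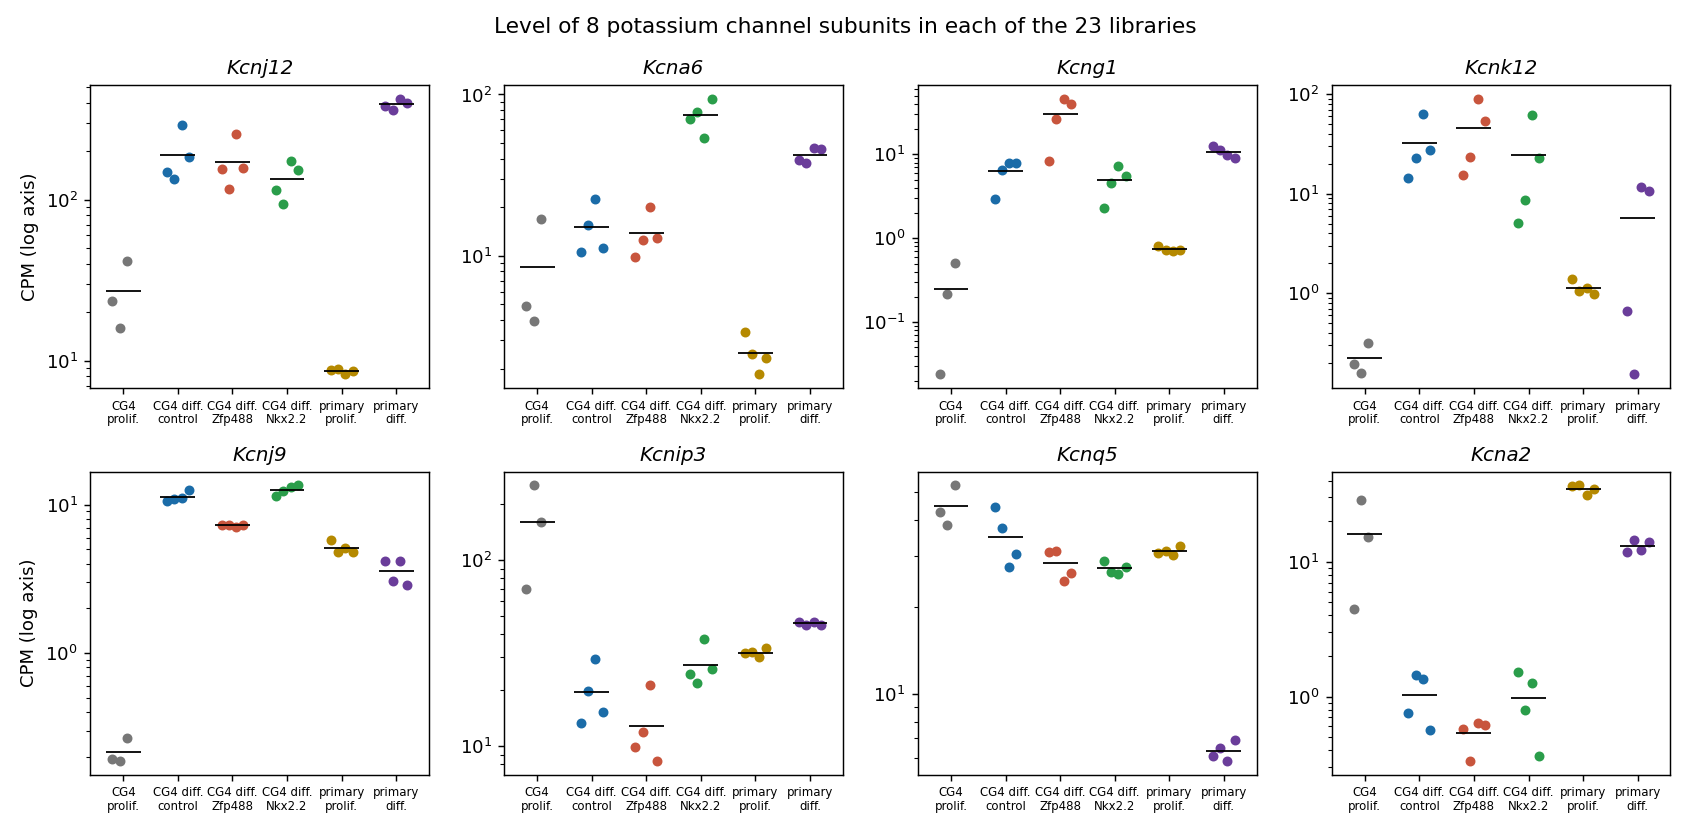
CPM (log axis) of 8 Kcn genes in each of the 23 libraries, 1 point per library, with the group mean as a black line. Kcnj12 stands at 8.26 to 8.93 CPM in proliferating and 361 to 423 CPM in differentiating primary cells, Kcna6 is highest with Nkx2.2, Kcng1 with Zfp488, and Kcnk12 splits the differentiating primary libraries.

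The responses to differentiation in the 2 cell sources share no library. Of 37 members tested in both, 19 were called in both, 11 of them in the same direction (57.9%), against 62.2% of the 6474 genes called in both. Among these 11, Kcnc4, Kcng1, Kcnj12, Kcnk12 and Kcnrg were higher and Kcna2, Kcnd3, Kcnk10 and Kcnk2 lower in both. Kcnh5, Kcnip3 and Kcnj4 rose in primary and fell in CG4 cells, and Kcnab1, Kcnh2, Kcnj9, Kcnn1 and Kcnt1 did the opposite. Of these, Kcnk12 and Kcnn1 in primary cells and Kcnc4 and Kcnd3 in CG4 cells are among the calls that depend on single libraries.

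The difference between the responses, CG4 minus primary, was tested as an interaction. It was called for 35 of 47 members, 21 with a positive difference (44.7%, all genes 33.8%) and 14 with a negative one (29.8%, all genes 35.4%). The sign does not say in which source the change was larger. The median difference was 0.87 for the members and -0.03 for all genes. Kcnj9, which fell in primary and rose in CG4 cells, differed by 6.23 ± 0.27 (adjusted p = 1.02e-10). Kcnab1 differed by 6.66 ± 0.80 (adjusted p = 3.59e-06), and by 8.71 without proliferating CG4 replicate 3. Kcnq3 differed by -4.64 ± 0.67 (adjusted p = 2.16e-05, and by -4.01 without proliferating CG4 replicate 3) and Kcnh5 by -4.61 ± 0.60 (adjusted p = 8.06e-06).

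For Kcnj12, which rose in both, the rise was smaller in CG4 cells by 2.66 on the log2 scale (-2.66 ± 0.38, adjusted p = 1.76e-05). In levels, proliferating CG4 cells (15.9 to 41.7 CPM) lay above proliferating primary cells (8.26 to 8.93 CPM), and differentiated control CG4 cells (135 to 291 CPM) below differentiating primary cells (361 to 423 CPM). Kcna6 differed by -3.24 ± 0.56 (adjusted p = 0.000128), and by -2.29 without proliferating CG4 replicate 3. Its 10.6 to 22.5 CPM in control CG4 cells overlapped with 3.94 to 16.9 CPM in proliferating ones. Kcng1, by contrast, rose by 4.66 ± 0.78 in CG4 and 3.90 ± 0.14 in primary cells, a difference of 0.81 ± 0.66 that did not pass the test (adjusted p = 0.285).

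**Figure D4:**
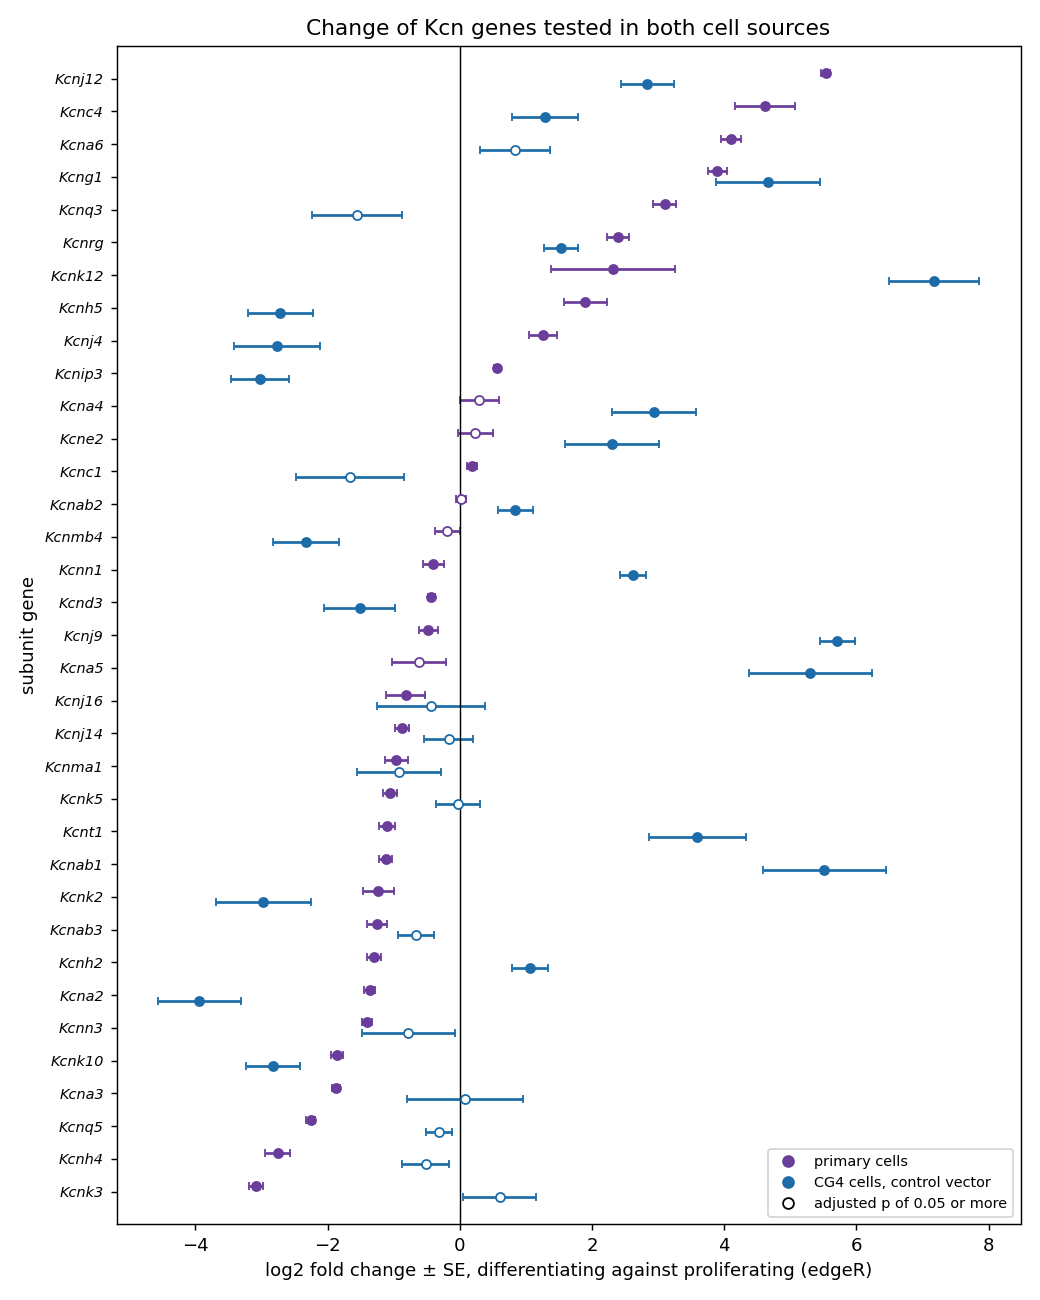
Log2 fold change (horizontal axis, ± SE, edgeR) of differentiating against proliferating cells for 35 of the 37 Kcn genes tested in both primary (purple) and CG4 cells (blue), ordered by the change in primary cells, with open points where the adjusted p was 0.05 or more. Kcnj12 has the highest value in primary cells (5.54) and Kcnk12 in CG4 cells (7.17), and Kcnj9, Kcnab1 and Kcnt1 point in opposite directions.

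Potassium pumps, cotransporters and channel partners outside the rule were taken from a list of 26 genes, of which 21 were named in the tables. With Zfp488, 2 of the 21 were higher and none lower, where 5.89% and 3.15% of all genes were. These were Hcn2, a channel opened by hyperpolarization (87.3, 154, 193.8 and 283 CPM against 48.3, 49.1, 54.0 and 72.4 CPM, log2 fold change 1.69 ± 0.31, adjusted p = 0.00828), and the cotransporter Slc12a2 (0.89 ± 0.24, adjusted p = 0.0388). With Nkx2.2, 5 were higher (Atp1b3, Slc12a5, Hcn3, Abcc9 and Amigo1) and 2 lower (Atp1b1 and Slc12a7), among all genes 6.1% and 4.48%. Abcc9, the sulfonylurea receptor that joins inward rectifiers, was at 0.706 to 0.851 CPM against 0.0447 to 0.248 CPM (2.56 ± 0.52, adjusted p = 0.00801). In the direct comparison 2 were higher and 8 lower with Zfp488, among all genes 13.3% and 12%.

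In primary differentiation 14 of the 20 tested were higher and 5 lower, among all genes 41.5% and 43.3%. Slc12a2, which carries potassium into the cell with sodium and chloride, went from 116.5, 118.7, 117.4 and 122.9 CPM to 2000, 2222, 1799 and 1734 CPM (4.07 ± 0.08, adjusted p = 2.57e-12). Dpp10, an auxiliary subunit of A-type channels, rose by 4.54 ± 0.15 (adjusted p = 1.57e-10) while the A-type pore Kcnd3 fell from 34.5 to 38.1 CPM to 25.9 to 28.4 CPM (-0.43 ± 0.05, adjusted p = 1.20e-05). In CG4 cells 8 of 20 were higher and 2 lower, among all genes 32.5% and 33.2%. There Slc12a2 was at 70.8 to 117.0 CPM in control and 67.5 to 133.9 CPM in proliferating cells. Its response differed between the sources by -4.22 ± 0.28 (adjusted p = 7.21e-09).

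At an adjusted p under 0.05, the authors' deposited table for Zfp488 lists 49 members with 5 higher and 1 lower. Their table for Nkx2.2 lists 51 members with 14 higher and 4 lower. The shares of all genes called in the authors' tables are not given here, and those of the edgeR test cannot stand in for them. The authors' counts are therefore not read as particular to the members.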

How the data were processed

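RNA-seq counts of 23 libraries were analysed. The authors deposited 1 file of raw counts per library, and the submitters' processing notes list Trimmomatic (0.36), STAR (2.5.2b), featureCounts (Subread 1.5.2) and the build rn6. The annotation release, the strand setting and the treatment of multiply matching reads are not given in the sources at hand, so closely similar or overlapping genes have uncertain values. For each factor there is also a table deposited by the authors, attributed to DESeq2, with log2 fold changes, p-values and a normalized signal that by its values is each count divided by a size factor. These tables gave the gene names and the counts in the last paragraph of the results, and every other value rests on the counts.

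The test was edgeR's quasi-likelihood test (edgeR 4.0.16, R 4.3.3) with TMM scaling and filterByExpr, two-sided, with adjustment over all genes tested. The 12 differentiating CG4 libraries shared 1 fit of 32552 genes, and the other fits used the 15219 genes listed in all files. Titles call the libraries biological replicates, and a p-value here covers the spread among them alone. The members and lists were chosen with earlier results of these data known. The naming rule takes a fixed panel of glial members, in each comparison up to 8 rises and 8 falls with a mean of at least 1 CPM, and members with at least 10 CPM in a group. It named 47, and the rest were chosen for completeness. A few genes it takes are counted but not reported here by name. Levels of the 6 members absent from some files come from a scaling of the 12 libraries alone.

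Libraries with the same number deviated together from their group means, with correlations of 0.192 to 0.690 between Zfp488 and control, 0.143 to 0.554 between control and Nkx2.2 and 0.264 to 0.559 between the factors. In differentiating CG4 cells the numbers therefore pair the libraries, although no label explains them. As alternatives, RLE size factors, DESeq2 1.42.0, a fit with no filter on low counts, the replicate block, other sets of libraries or genes, and leaving out each library were tried. The fits without 1 close pair of differentiating primary libraries were chosen after seeing the data. The procedure was also run on simulated libraries, which were independent and had the same spread per gene in all groups. They held neither the pairing by number nor the unequal spread of these groups, so that run does not cover them. Promoters were matched by symbol to RefSeq on GRCr8, and symbols with several entries were left out.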

Additional observations from a re-analysis of the deposited data

Results flagged for a closer look

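Among groups of 4 libraries, 6 of 173 had a library apart from the other 3 by Dixon's criterion, where chance flags about 1 in 20 groups. These were Kcna3 in Zfp488 replicate 1 (2.203 CPM, the others 0.489 to 0.744), Kcne4 in Nkx2.2 replicate 1 (1.75 CPM, the others 0.906 to 0.937), and Kcnk1 in Zfp488 replicate 3 (3.36 CPM, the others 0.975 to 1.07). Kcnq3 in Zfp488 replicate 4 (2.14 CPM, the others 0.923 to 1.08) and Kcnk3 in proliferating primary replicate 3 (13.7 CPM, the others 12.5 to 12.6) were also high. Kcnj9 in Zfp488 replicate 3 was low by a small amount, at 7.03 CPM against 7.33 to 7.34.

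The response to differentiation differed between CG4 and primary cells, by an interaction term, for 35 members, and the 16 that the naming rule takes are given here as log2 differences, CG4 minus primary. Kcnab1 (6.66), Kcnj9 (6.23) and Kcnt1 (4.75) fell in primary and rose in CG4 cells. Kcna5 (5.90) rose in CG4 cells and did not pass the test in primary cells. Kcnk12 (4.85) rose in both, in primary cells with the split between the pairs of libraries. Kcnk13 (5.83), Kcnf1 (5.19) and Kcnk3 (3.72) fell in primary cells, and the first of these rests on 2 counts in proliferating CG4 cells. Kcnf1 was also low in CG4 cells, with means of 0.342 CPM in control and 0.1125 CPM in proliferating cells, and these groups overlap. Kcnq3 (-4.64), Kcna6 (-3.24) and Kcnn2 (-3.50) rose in primary cells, and Kcnn2 was -2.03 and lost its call without proliferating CG4 replicate 3 (adjusted p = 0.0651). Kcnh5 (-4.61), Kcnj4 (-3.97) and Kcnip3 (-3.54) rose in primary and fell in CG4 cells. Kcnc4 (-3.31) and Kcnj12 (-2.66) rose in both, by less in CG4 cells. Single libraries moved several of these differences by over 1.5 times in fold, all still called except Kcnn2. Without proliferating CG4 replicate 1, Kcna5 was 8.90, Kcnf1 6.28 and Kcnn2 -4.13, and without replicate 2, Kcnk13 was 8.31 and Kcnj4 -2.93. Without replicate 3, Kcnab1 was 8.71, Kcnk3 4.33, Kcnq3 -4.01 and Kcna6 -2.29. Kcnk12 was 5.47 without differentiating primary replicate 3, and Kcnc4 -3.98 without proliferating primary replicate 3. The source of the cells cannot be told apart here from the vector and the read length.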

How the results depend on the processing

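The count of members called with Zfp488 (5) was 3 with no filter on low counts, 8 with DESeq2, 15 with the replicate block and 2 to 6 when 1 library was left out. Under the same settings the count over all genes (1339) was 1118, 2136, 3576 and 458 to 1604. With Nkx2.2 (16 members) the block gave 28 and single libraries 11 to 18, and between the factors (22) 34 and 18 to 26. Over all genes these counts were 3876 and 924 to 2302 with Nkx2.2 (1567), and 6276 and 2585 to 4636 between the factors (3741). In primary differentiation (36 members), CG4 differentiation (29) and their difference (35), leaving out 1 library gave 32 to 36, 25 to 32 and 31 to 36. For these 3 comparisons the counts over all genes (10439, 8213 and 9146) were then 10186 to 10448, 7360 to 8424 and 8789 to 9545. In these 3 the numbers do not pair the libraries (correlations of -0.04 to 0.10 in primary and -0.13 to 0.05 in CG4 cells), and the block counts stayed within 1.5 times of the main ones. For CG4 differentiation and the difference, the block fit also left out control replicate 4, which has no proliferating CG4 library of its number. Kcnh2 in CG4 differentiation was not called in that fit (adjusted p = 0.0544). The next counts cover 173 changes, those of named members that were called in the main fit or belong to the fixed panel. Among them RLE size factors altered no call, DESeq2 3, no filter 6 and the block 20 beside 1 change of sign. Calls gained by other members are not in these counts. Over all members the block gained 10 calls with Zfp488, 12 with Nkx2.2 and 12 between the factors.

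Signs changed for Kcnk12 in primary cells, which was called (-1.36 without differentiating replicates 3 and 4), and otherwise only for values that did not pass the test. Without differentiating replicates 3 and 4 Kcna4 was -0.16 in primary cells, and without 1 and 2 Kcna5 was 0.12 there. In CG4 differentiation, Kcnj16 was 0.0015 with the block, in the fit that also left out control replicate 4. Leaving out 1 library gave, with Nkx2.2, -0.34 to 0.22 for Kcna2, -0.18 to 0.27 for Kcnj16 and -0.40 to 0.97 for Kcnk13. With Zfp488 it gave -0.028 to 0.83 for Kcna4 and -0.33 to 0.16 for Kcna6, and between the factors -0.25 to 0.082 for Kcnj2 and -0.34 to 0.74 for Kcnk1. In CG4 differentiation it gave -0.45 to 1.13 for Kcna3, -0.97 to 1.01 for Kcnj16 and -1.41 to 0.095 for Kcnma1. In the difference of responses it gave -0.14 to 1.82 for Kcnj16 and -0.44 to 1.09 for Kcnma1, which without differentiating primary replicates 1 and 2 were -0.069 and -0.27. The cause was not tested. Depth limits genes such as Kcnj13, Kcnk2, Kcnk13 and Kcnn2, with under 30 counts over a whole group.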
